A study of Mus musculus with 16 samples.

Results

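Complement is a cascade of plasma and tissue proteins that marks particles for uptake, calls in leukocytes and can lyse membranes. The classical pathway starts when C1q, built from the A, B and C chains, binds antibody or other ligands, while the alternative pathway is carried by factor B and stabilised by properdin. Both converge on enzymes that cleave C3 and then C5, and in the lung alveolar epithelium and macrophages are known local sources of several of these proteins. The complement components described here were chosen by name: C1qa, C1qb and C1qc (the C1q chains), C2 and Cfb (the protease subunits of the classical and the alternative convertase), Cfp (properdin), C3 and Hc (the mouse gene for C5). Of these 8 genes 7 had a probe that could be named, each with 1 probe, among 20629 features tested, and C3 is not analysed here.

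RNA came from lungs of male C57/BL6 mice aged 8 weeks. One group of 4 pools, each of 3 animals, had inhaled aerosolised bacterial lipopolysaccharide (LPS) for 5 days and was sampled when the last exposure ended, and the other group of 4 pools of 3 animals had breathed air. Each pool was set against the same commercial universal mouse reference RNA on 2-colour arrays, with the dyes swapped between its arrays, so that a level is log2(lung/reference) for that probe and levels of different probes cannot be ranked. Pooling hides the spread between animals, and in whole lung fewer cells of a type and less RNA per cell cannot be told apart.

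The 15 arrays used had 22575 spots each, with positive signal in both channels at 97.2% to 99.5% of them and a median lung signal 4.28 to 28.2 times the local background. The 16th array, air pool 4 with lung in Cy3, was left out because its file joins images of 2 arrays. Lung identity was checked on Sftpc, the surfactant protein C of alveolar type 2 cells, which lay at percentile 99.97 of log2(lung/reference) in the air pools. Image program version and the week in the image names differed between arrays. LPS pools 1 and 2 and air pools 3 and 4 were read with version 2.2.3 of the image program, and LPS pools 3 and 4 and air pools 1 and 2 with version 2.2.4. No pool was read with both versions, so a difference between versions cannot be told apart from a difference between the pools read with each. The image names carry week 1 for all LPS arrays, week 4 for air pools 1 and 2 and week 8 for air pools 3 and 4, although all labels give 1 week, so that week and exposure cannot be told apart, and within the air pools neither can week and version.

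The C1qb and C1qc genes lie next to each other on chromosome 4, and their promoters are shown because the probes of these neighbours gave different patterns across the pools. The windows run from 250 bases before to 50 bases after the annotated start (RefSeq, GRCm38.p6, both on the minus strand, chr4:136886151-136886450 and chr4:136892865-136893164). Capitals mark the PU.1 core GAGGAA on either strand and, in C1qc, an NF-kB site.
C1qb: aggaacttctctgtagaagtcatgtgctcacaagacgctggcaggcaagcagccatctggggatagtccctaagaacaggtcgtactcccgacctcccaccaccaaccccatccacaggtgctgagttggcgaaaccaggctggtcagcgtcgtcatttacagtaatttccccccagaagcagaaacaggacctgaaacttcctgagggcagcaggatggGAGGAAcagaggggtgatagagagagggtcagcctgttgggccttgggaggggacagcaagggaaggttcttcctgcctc
C1qc: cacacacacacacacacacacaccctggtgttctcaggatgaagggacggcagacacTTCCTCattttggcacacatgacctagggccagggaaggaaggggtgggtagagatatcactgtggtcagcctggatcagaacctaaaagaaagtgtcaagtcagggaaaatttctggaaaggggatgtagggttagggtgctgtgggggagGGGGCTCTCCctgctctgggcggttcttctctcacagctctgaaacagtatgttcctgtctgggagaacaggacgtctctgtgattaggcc
The PU.1 core began 30 bases before the start of C1qb, and on the opposite strand 193 bases before that of C1qc, whose NF-kB site began 41 bases before it. Of 32841 windows of the same length 28.3% hold the PU.1 core and 8.46% the NF-kB site on either strand. An interferon regulatory factor element (a pair of GAAA blocks with 2 bases of any kind between them, in 3.44% of windows) and a GAS element (TTCNNNGAA, in 8.30%) were also searched for on both strands and were not in these windows. The promoter table matched 5 of the 8 genes, namely C1qb, C1qc, C3, Cfp and Hc. These letters are a description of the windows and say nothing of binding in these lungs.

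Comparing the LPS pools with the air pools, 3 of the 7 measured components passed the threshold (limma, Benjamini-Hochberg adjusted p under 0.05 over all features), all higher with LPS: Cfb, C1qb and Hc. None was lower, and C1qa, C1qc, C2 and Cfp did not pass. Over all features 5.95% were called higher and 0.713% lower. The median log2 difference of the 7 components was 0.68, beside 0.01 over all features. In 4 of the 7 (Cfb, C1qb, Hc and Cfp) every LPS pool lay above every air pool, as in 11.3% of the features with a value in all 8 pools.

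**Figure D1:**
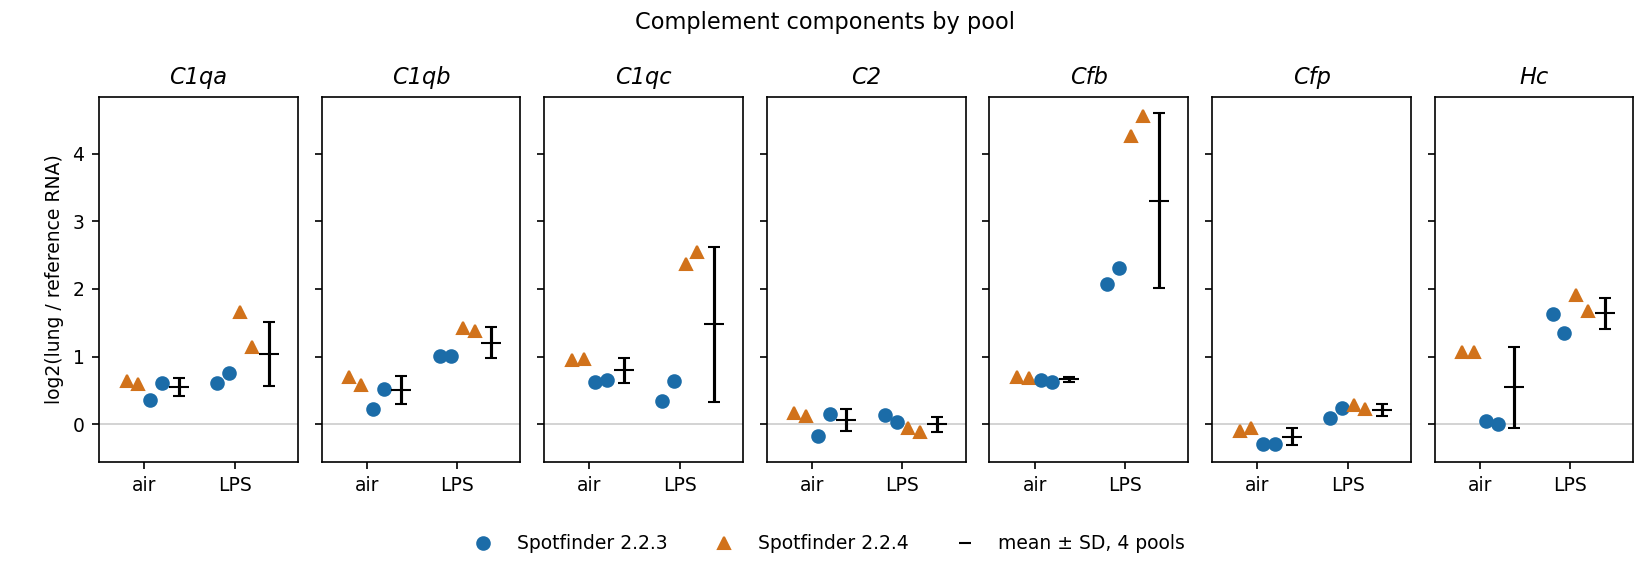
Each point is 1 pool and the vertical axis is log2(lung/reference RNA), with a panel per gene, air left and LPS right. Circles are pools read with Spotfinder 2.2.3, triangles those read with 2.2.4, and bars give the mean ± SD of 4 pools. The LPS pools of Cfb lie between 2.07 and 4.56 and its air pools between 0.62 and 0.69.

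Cfb, the serine protease of the alternative convertase, had the largest difference of the 7 components. Its level was 2.07, 2.31, 4.26 and 4.56 in LPS pools 1 to 4 and 0.69, 0.68, 0.66 and 0.62 in air pools 1 to 4. The groups were far apart, the air pools nearly alike, and LPS pools 3 and 4 above pools 1 and 2. The mean was 3.30 ± 1.29 (SD, n = 4) with LPS and 0.66 ± 0.03 (SD, n = 4) with air. The log2 difference was 2.64 ± 0.51 (SE), a 6.24-fold higher level with a 95% confidence interval of 2.87 to 13.6 (limma, adjusted p = 0.0127). It was called in all 22 alternatives in which it could be tested, with adjusted p from 0.00104 to 0.0447. Its spot gave no signal on 1 of the 7 air arrays, so air pools 2 and 4 rest on 1 array each.

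The size of the Cfb difference was not the same in the pools read with the 2 versions of the image program. It was 1.56 (2.94-fold) among the pools read with version 2.2.3 and 3.73 (13.3-fold) among those read with version 2.2.4, with 2 pools of each group in each. The difference between versions was 2.17 ± 0.22 (SE; limma interaction, adjusted p = 0.0199), where 8.69% of all features passed that test. On the LPS arrays the reference signal of the Cfb spot was 40.9 to 79.6 times the local background with version 2.2.3 and 6.22 to 20.4 times with version 2.2.4, without overlap. The lung signal of the same arrays was 227 to 425 and 101 to 219 times background. In the air pools, read with the same 2 versions, log2(lung/reference) of Cfb spanned less than 0.1. Single air arrays spread more widely, from 0.48 to 0.83 with version 2.2.3 and from 0.50 to 0.89 with version 2.2.4. Within LPS pool 2 the arrays with lung in Cy3 and in Cy5 gave 2.94 and 1.69.

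C2, the protease that takes the place of factor B in the classical convertase, lies beside Cfb on chromosome 17 and did not pass. Its level was 0.13, 0.04, -0.06 and -0.11 in LPS pools 1 to 4 and 0.16, 0.12, -0.18 and 0.16 in air pools 1 to 4. The groups overlapped, and the log2 difference was -0.06 ± 0.13 (SE), with a 95% confidence interval from -0.35 to 0.23 (limma, adjusted p = 0.809). The interval leaves room for a small change in either direction. The log2 differences of Cfb and C2 were 2.71 apart, with an exact two-sided permutation p of 0.0286 over the 8 pools, the smallest that 70 arrangements can give. This pair was 1 of 3 pairs compared, all chosen after the values were seen. The exact permutation p adjusted over the 3 was 0.0857, an adjustment that does not account for that choice.

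The 3 chains of C1q, which are needed together to form the molecule, have their genes in the order C1qb, C1qc and C1qa on chromosome 4. In the order A, B and C they gave log2 differences of 0.49, 0.70 and 0.68, of which 1 passed. C1qb had levels of 1.01, 1.0, 1.42 and 1.38 in LPS pools 1 to 4 and 0.69, 0.58, 0.22 and 0.53 in air pools 1 to 4. The groups did not overlap, and the gap between the lowest LPS pool and the highest air pool was 0.31. C1qb was higher with LPS by 0.70 ± 0.16 (SE), or 1.62-fold (limma, adjusted p = 0.0272), and by 0.63 and 0.76 within versions 2.2.3 and 2.2.4. The call was lost without LPS pool 3 or 4 or air pool 3 or 4 (adjusted p = 0.0767, 0.0687, 0.0575 and 0.0675), and among all alternatives the adjusted p ran from 0.00516 to 0.0929.

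C1qa, the A chain, had levels of 0.60, 0.76, 1.66 and 1.14 in the LPS pools and 0.64, 0.60, 0.36 and 0.61 in the air pools. LPS pool 1 lay within the air range and the other LPS pools above it. The log2 difference of 0.49 ± 0.21 (SE) did not pass (limma, adjusted p = 0.211), and without LPS pool 3 it was 0.28. It was 0.19 within version 2.2.3 and 0.78 within version 2.2.4, and these did not differ at the threshold (interaction, adjusted p = 0.172).

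C1qc, the C chain, split the LPS pools by version. It had levels of 0.35, 0.64, 2.37 and 2.54 in LPS pools 1 to 4 and 0.95, 0.97, 0.62 and 0.65 in air pools 1 to 4. LPS pool 1 was below every air pool, LPS pool 2 within their range, and LPS pools 3 and 4 far above them. The log2 difference over all pools, 0.68 ± 0.45 (SE), did not pass (limma, adjusted p = 0.405), and it ran from 0.32 without LPS pool 4 to 1.06 without LPS pool 1. Within version 2.2.3 it was -0.14 and within version 2.2.4 it was 1.50 (adjusted p = 0.605 and 0.00844), and the difference between versions of 1.64 ± 0.21 (SE) passed (limma interaction, adjusted p = 0.0199). The reference signal of its spot on the LPS arrays was 44.0 to 84.8 times background with version 2.2.3 and 7.48 to 13.2 times with version 2.2.4. On the air arrays it was 31.9 to 72.5 and 6.89 to 18.9 times, where the air pools of version 2.2.4 had levels about 0.3 above those of version 2.2.3. Cfb and C1qc were thus the 2 of 7 components whose difference between versions passed in the main setting. Leaving out 1 pool (LPS pool 1, LPS pool 2 or air pool 2) ended both of these calls, at adjusted p from 0.0576 to 0.119. Without LPS pool 3 or LPS pool 4 that of Cfb was left (adjusted p = 0.0474 and 0.0234) and that of C1qc was not.

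**Figure D2:**
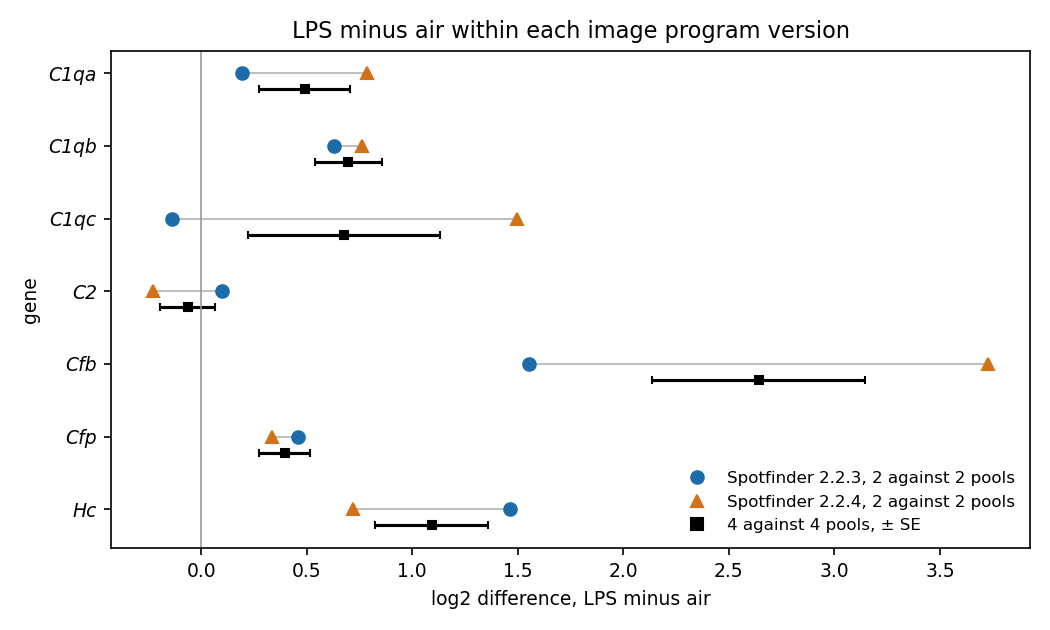
The horizontal axis is the log2 difference LPS minus air for each component. Circles and triangles give it within Spotfinder 2.2.3 and 2.2.4, 2 against 2 pools each, and squares give the value over all 8 pools ± SE. Cfb ran from 1.56 to 3.73 and C1qc from -0.14 to 1.50, while C1qb stayed between 0.63 and 0.76.

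**Figure D3:**
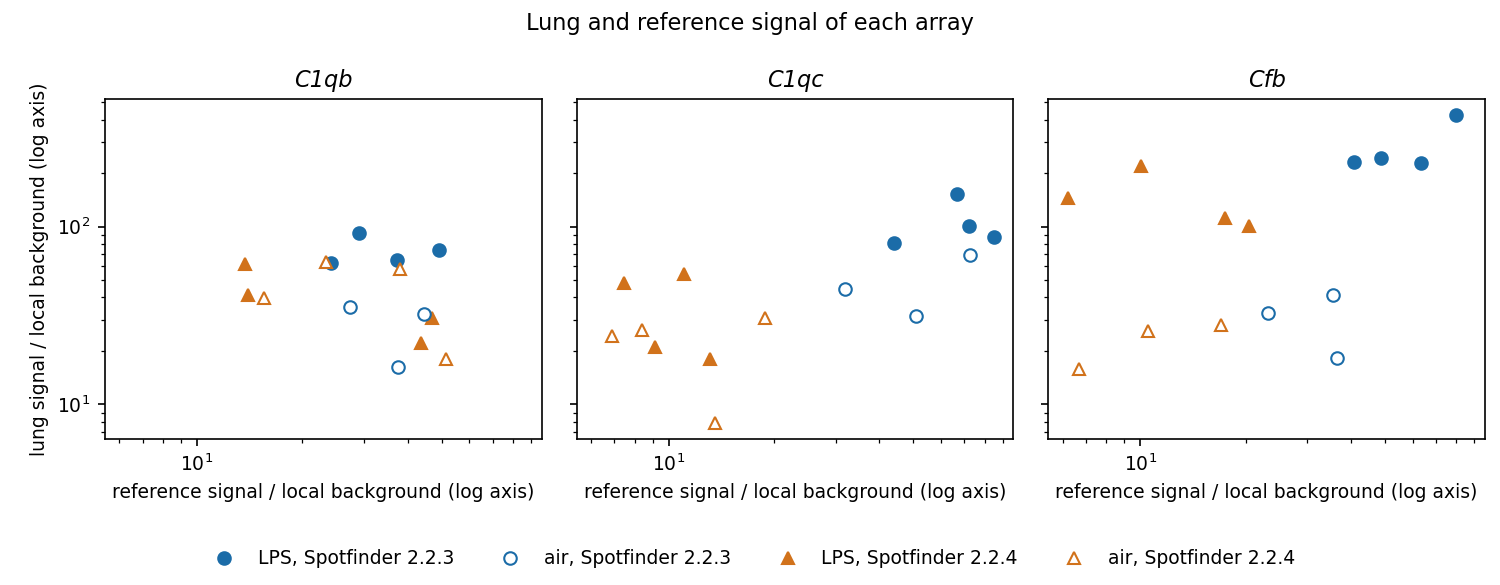
Each point is 1 array, with the reference signal over local background on the horizontal and the lung signal over local background on the vertical axis, both logarithmic. Filled points are LPS and open points air, circles version 2.2.3 and triangles version 2.2.4. For C1qc and Cfb the version 2.2.4 arrays lie at lower reference signals than the version 2.2.3 arrays in both groups.

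The lower reference signal with version 2.2.4 was not particular to these 2 genes. For C1qa it was 31.3 to 47.1 times background with version 2.2.3 and 8.68 to 19.6 times with version 2.2.4 on the LPS arrays. On the air arrays it was 25.7 to 40.9 against 11.7 to 18.3 times. The difference of C1qa between versions, 0.59, did not pass. For C1qb, with a difference between versions of 0.13, the ranges overlapped. They were 24.2 to 49.2 and 13.7 to 47.0 times on the LPS arrays. On the air arrays they were 27.3 to 44.6 and 15.6 to 51.3 times. C2, Cfp and Hc, with differences between versions of -0.33, -0.12 and -0.74, had overlapping ranges on the LPS arrays and separate ones on the air arrays. Over all spots, the median lung signal was 19.3 to 28.2 times background on the LPS arrays of version 2.2.3. On the LPS arrays of version 2.2.4 it was 4.28 to 10.1 times. On the air arrays it was 6.47 to 14.7 and 4.77 to 14.0 times. The part of the reference signal, or of the signal of the whole array, in the differences between versions was not tested.

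In the other 2 pairs, C1qb and C1qa differed in their response by 0.21 (exact permutation p = 0.2) and C1qb and C1qc by 0.02 (exact permutation p = 0.943). These tests of 4 against 4 pools do not show that the chains responded alike. The C1qb minus C1qc difference of responses was 0.77 within version 2.2.3 and -0.73 within version 2.2.4.

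Hc encodes C5, whose cleavage releases the chemoattractant C5a and starts the lytic complex. Its level was 1.63, 1.35, 1.91 and 1.67 in LPS pools 1 to 4 and 1.06, 1.07, 0.05 and 0.00 in air pools 1 to 4. All LPS pools were above all air pools, and air pools 1 and 2 were about 1 log2 unit above air pools 3 and 4. Hc was higher with LPS by 1.09 ± 0.27 (SE), or 2.13-fold (limma, adjusted p = 0.0375). The difference was 1.46 within version 2.2.3 and 0.72 within version 2.2.4 (limma, adjusted p = 0.00156 and 0.0429), with 2 pools of each group in each. Both passed, in fits where 4707 and 1158 features passed, beside 1375 over all 8 pools. The interaction for Hc had an adjusted p of 0.0641. The call over all 8 pools was lost when any LPS pool, air pool 3 or air pool 4 was left out (adjusted p from 0.0608 to 0.103). The split of the air pools follows both the version and the week in the image names, which cannot be told apart there.

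Cfp encodes properdin, made by leukocytes and known for holding the alternative convertase together. Its level was 0.08, 0.24, 0.28 and 0.22 in LPS pools 1 to 4 and -0.10, -0.06, -0.30 and -0.29 in air pools 1 to 4. The groups did not overlap, by a gap of 0.15. Air pools 1 and 2 lay above air pools 3 and 4, a split that follows both version and week in the image names, as for Hc. The log2 difference of 0.40 ± 0.12 (SE), or 1.32-fold, did not pass (limma, adjusted p = 0.0849). With version as a block the adjusted p was 0.0447, and the differences within the versions were 0.46 and 0.33. Its spot was bright, at 107 to 865 times background in lung on the LPS arrays and 84.9 to 521 times on the air arrays. The deposited factor headed SF was below 1 for it on 2 LPS arrays and 3 air arrays, and without those spots too few pools were left for a test.

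Some markers of myeloid leukocytes were higher in the same comparison, in which 5.95% of all features were called higher and 0.713% lower. Of 13 measured macrophage and monocyte markers 6 were higher with LPS and none lower, with a median log2 difference of 1.05, and their mean level was 1.47 to 2.10 in the LPS pools and 0.45 to 1.02 in the air pools. Of 11 measured neutrophil markers 4 were higher and none lower, with a median log2 difference of 0.51 and a mean level of 1.06 to 2.08 against 0.22 to 0.83. The median difference of the neutrophil markers was 0.25 within version 2.2.3 and 1.43 within version 2.2.4, beside 0.97 and 0.95 for the macrophage markers. None of 5 lymphocyte markers passed, with a median of 0.03. Among structural cells, 1 of 4 alveolar type 1 cell markers was higher (Pdpn, 1.34), with a list median of 0.15 and differences from -0.29 to 1.34. Of 7 fibroblast and mesothelial markers 1 was higher (Pdgfra, 0.80), with a list median of -0.02 and differences from -0.30 to 0.81. None of 3 measured club cell markers passed, with differences from -1.84 to 1.26, and none of 4 endothelial cell markers, with a median of -0.17. None of 9 alveolar type 2 cell markers passed, with a median of 0.25, and none of 5 hepatocyte markers, with a median of -0.30 and mean levels of 0.06 to 0.27 with LPS and 0.35 to 0.55 with air. The part of these cells in the differences of Cfb, C1qb and Hc was not tested.

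Among 46 further complement genes, 37 were measured. With LPS 6 of them were higher, none lower and 31 did not pass, with a median log2 difference of 0.01. The share called higher was 16.2%, beside 5.95% of all features. Of 9 receptors for complement fragments 4 were higher. Itgb2, the shared beta chain of complement receptors 3 and 4, was at 1.42 to 1.94 in the LPS pools and -0.39 to 0.13 in the air pools, a log2 difference of 1.74 ± 0.17 (SE; limma, adjusted p = 0.000268). Its partners Itgam (receptor 3) and Itgax (receptor 4) differed by 0.75 ± 0.17 and 1.29 ± 0.25 (SE; limma, adjusted p = 0.0284 and 0.0126). Itgam and Itgax are also carried by myeloid leukocytes at large. Itgax was not called within version 2.2.4 alone (adjusted p = 0.0819). Itgam was called in 2 of the 8 fits that left out 1 pool, and its difference was 0.52 within version 2.2.3 and 0.97 within version 2.2.4.

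C5ar1, the receptor that draws neutrophils and macrophages towards C5a, was at 1.40 to 1.61 in the LPS pools and 0.02 to 0.66 in the air pools. It was higher by 1.09 ± 0.15 (SE; limma, adjusted p = 0.00261) and was called in all 23 alternatives. C5ar2, the second C5a receptor, singled out after its values were seen, had a difference of -1.43 ± 0.48 (SE) that did not pass (limma, adjusted p = 0.114). The difference was -2.56 within version 2.2.3 (limma, adjusted p = 0.00364), where 4707 features passed. Within version 2.2.4 it was -0.29 (limma interaction, adjusted p = 0.0480). The level of C5ar2 in air pool 4, which rests on 1 array, was 2.91, beside 1.37 to 1.67 in the other air pools. Of the 37 measured further complement genes C5ar2 was 1 of 4 that passed the interaction, with C1s1, Fcnb and Cpn2, also named after their values were seen. The share of all features passing that test was 8.69%. C3ar1, the receptor for C3a, differed by 0.24 ± 0.14 (SE) and did not pass (limma, adjusted p = 0.335).

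Upstream, 1 of 11 measured genes of classical and lectin initiation was higher, beside 5.95% of all features. C1ra, a protease that C1q activates, was at 0.64 to 1.21 in the LPS pools and -0.09 to 0.24 in the air pools, a difference of 0.91 ± 0.15 (SE; limma, adjusted p = 0.00705). It was not called within version 2.2.4 alone (0.75, adjusted p = 0.104) or with lung in Cy3 alone (0.90, adjusted p = 0.105). C4b, the C4 subunit of the classical convertase, differed by 0.07 ± 0.21 (SE) and did not pass (limma, adjusted p = 0.867). Its sequence is close to that of C4a, which is not analysed here, so its value is uncertain. None of the 6 genes of the terminal pathway passed, with adjusted p from 0.240 to 0.786.

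Among the regulators, 1 of 6 measured soluble ones was higher and none of 5 membrane-bound ones, beside 5.95% of all features. Clu, which encodes clusterin, an inhibitor of the lytic complex, was at 2.28 to 2.67 in the LPS pools and 0.61 to 1.26 in the air pools, a difference of 1.44 ± 0.17 (SE; limma, adjusted p = 0.000836). Serping1, the inhibitor of the C1 proteases, differed by 0.56 ± 0.42 (SE) and did not pass (limma, adjusted p = 0.466). Its values fell into pairs by version, 2.93 and 3.07 against 4.44 and 4.18 in the LPS pools, and with version as a block its adjusted p was 0.0261. Cd55, which dissociates the convertases on cell surfaces, differed by -0.19 ± 0.16 (SE) and did not pass (limma, adjusted p = 0.529). Cfd is not analysed here.

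**Figure D4:**
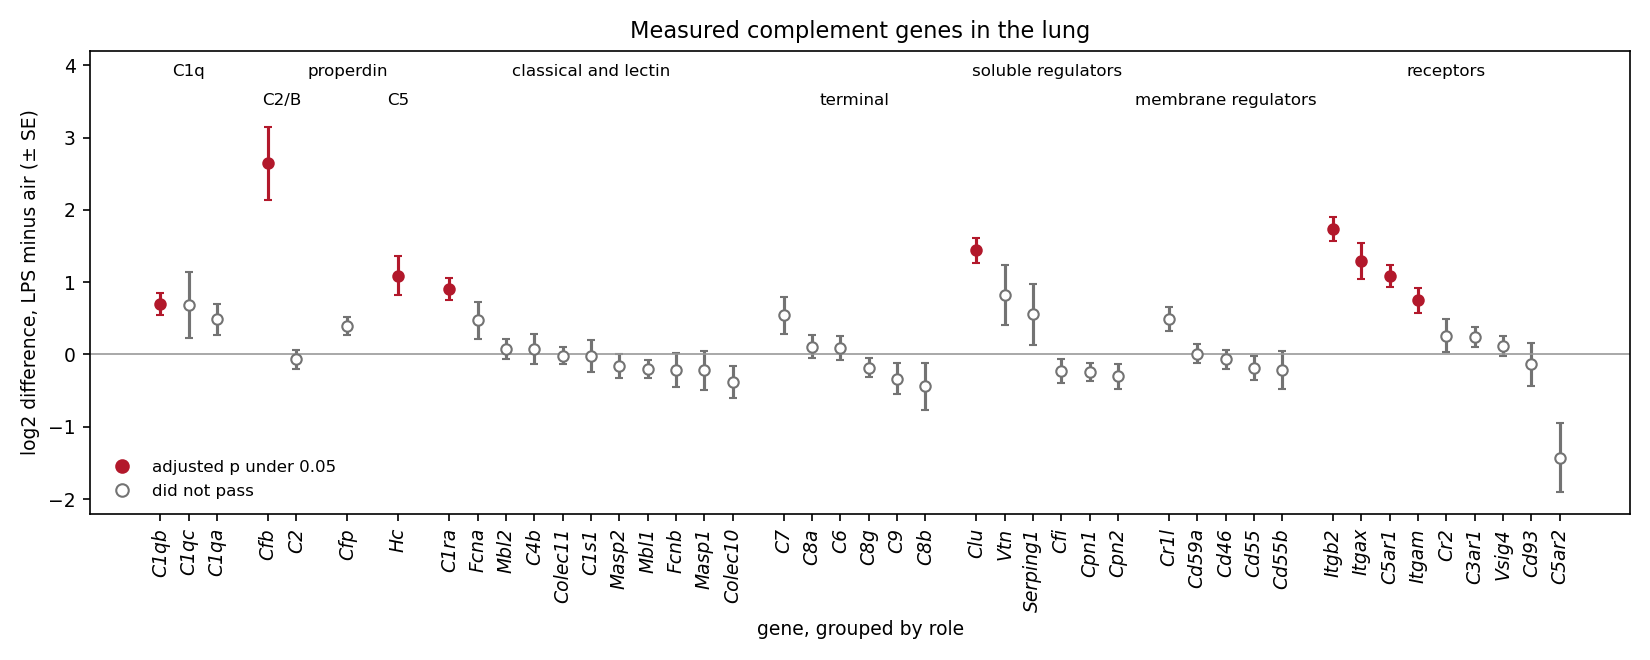
The vertical axis is the log2 difference LPS minus air ± SE for each of the 7 components and 37 further complement genes, grouped by role along the horizontal axis. Filled points passed the threshold and open points did not. The filled points all lie above 0, from 0.70 for C1qb to 2.64 for Cfb.

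The genes whose levels followed a component most closely over the 8 pools were sought among 16330 genes with a value in every pool, 3 for each component. For Cfb they were Cd177 (r = 0.994), Irak3 (r = 0.991) and Cxcr4 (r = 0.983), and for C1qb H2-T23 (r = 0.993), Ccl22 (r = 0.991) and Rab10 (r = 0.990). For Hc they were Dedd (r = 0.997), Cd200r1 (r = 0.997) and Pld3 (r = 0.995), and for C1qc Itgb6, Cd52 and Pdzrn3 (r from 0.981 to 0.983). For C1qa they were Fbln1, Sorcs2 and Lrrc28, for C2 5830411N06Rik, Otor and 2010109A12Rik, and for Cfp Olfr398, Rsbn1 and C1qtnf6, with r from 0.961 to 0.993. After the group means were taken off, the closest to C1qa were Celsr1, Myh15 and Fbln1 (r from 0.976 to 0.989). These correlations are a description over 8 pools of both exposures and both versions, with the genes of each pair read on the same arrays.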

How the data were processed

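Lung RNA of 4 LPS and 4 air pools was measured on 2-colour arrays against a reference RNA, and groups, pool numbers and dyes came from the labels. The deposited intensity values, per the file headers, are integrated spot signals from TIGR Spotfinder 2.2.3 or 2.2.4, with local background given beside them and already subtracted. The deposited SF column, a fraction from 0 to 1, is not explained in the labels or headers. The authors' deposited table of log2 ratios served as an alternative: its 15 columns followed the computed log2(lung/reference) with r of 0.982 to 0.998, slopes of 0.961 to 0.997 and column medians of -0.136 to 0.0889, so that scale and direction are known and its normalisation is not. The authors' deposited column for the array left out had a slope of 0.297, so its values are on the log10 scale. That array's file pairs its Cy3 image with the Cy5 image of air pool 3 (r = 0.998, next highest 0.958).

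Spots were matched to the platform's annotation by row and column. Correlation of probes of 1 gene was r = 0.523 in this placement and at most 0.0701 in 7 others. Spots at or below 0 were missing, and the brightest probe stood for a gene. Log ratios were loess-normalised within arrays (limma 3.58.1, R 4.3.3), turned to lung over reference and averaged over the arrays of a pool. lmFit and eBayes compared LPS with air, 4 pools each (a feature needed 3 in each group), with Benjamini-Hochberg adjustment over all 20629 features at 0.05; 1228 were higher and 147 lower. Precision is limited by the number of arrays and pools. An interaction with image program version used the same values, and pairs of genes were compared by two-sided exact permutation tests. The fit was tested on simulated data.

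Named genes were all components, each further complement gene that passed plus C4b, Cfd, C3ar1, C5ar1, Serping1 and Cd55 (an item of this rule is not reported here), and for each component the 3 genes of highest correlation. Components, lists and tests were chosen with earlier results of these data known. The pool numbers were treated as names: deviations of LPS and air pools of the same number correlated at r = -0.04, -0.26, -0.05 and -0.25. The alternatives changed arrays, normalisation, background, dim and SF spots, probes, dye, version, pool block, source table and each pool in turn. Promoter windows were taken from RefSeq.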

Additional observations from a re-analysis of the deposited data

Results flagged for a closer look

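In groups of 4 pools, a pool was singled out when its gap to the nearest other pool, divided by the range, exceeded Dixon's critical value. Chance does so in about 5% of groups, and it happened in 4 of the 34 groups checked. C1qa in air pool 3 was at 0.357, below the other air pools at 0.595 to 0.636. C2 in air pool 3 was at -0.182, below the other air pools at 0.116 to 0.165. Clu in air pool 3 was at 0.607, below the other air pools at 1.15 to 1.26. Itgax in LPS pool 4 was at 1.49, below the other LPS pools at 2.29 to 2.39. Air pool 3 was thus the low pool in 3 of the 4 cases, and C1qb was also lowest there at 0.22. Without air pool 3, C1qb differed by 0.60 (limma, adjusted p = 0.0575).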

How the results depend on the processing

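Cfb was higher with LPS and past the threshold in all 22 alternatives that could test it, with log2 differences of 1.56 to 3.73. With lung in Cy3 alone it could not be tested. C1qa kept its direction and missed the threshold in all 23. C1qb kept its direction and lost its call with all 16 arrays (0.70, adjusted p = 0.0573), with lung in Cy3 alone (0.83, 0.0534), with lung in Cy5 alone (0.61, 0.0929) and with the pool number as a replicate block (0.70, 0.0919). The 8 fits without 1 pool gave 0.60 to 0.76 for C1qb, of which 4, at 0.60 to 0.70, lost the call. Hc kept its direction and lost its call with all 16 arrays (1.06, 0.0712), median centring (1.06, 0.0622), lung in Cy3 alone (0.60, 0.418) and the replicate block (1.09, 0.100). The 8 fits without 1 pool gave 0.91 to 1.27 for Hc, of which 6, at 0.91 to 1.19, lost the call. C1qc was -0.14 with version 2.2.3 alone and 1.50 with version 2.2.4 alone, C2 was 0.10 with version 2.2.3 alone, and Cfp passed with version as a block (0.40, 0.0447). C4b changed sign with lung in Cy5 alone (-0.0196), with version 2.2.3 alone (-0.15) and without 1 pool (-0.0445 to 0.194), and C3ar1 with version 2.2.4 alone (-0.0282).

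Of the components, 3 passed in the main setting, 1 with all 16 arrays, 0 with lung in Cy3 alone, 1 with the replicate block and 1 to 3 without 1 pool. The 2 calls of a difference between versions became 0 with all 16 arrays and 0 to 2 without 1 pool. With median centring there were 3 such calls, Hc being added (-0.96, limma interaction, adjusted p = 0.0319). With lung in Cy3 alone the difference of C2 between versions was -0.85. Of the further complement genes, 6 passed, 3 with lung in Cy3 alone and 13 with version 2.2.3 alone. Over all features 1375 passed, 501 with all 16 arrays, 735 with median centring, 416 with lung in Cy3 alone, 2265 with version as a block, 4707 with version 2.2.3 alone, 857 with the replicate block and 711 to 1262 without 1 pool. With version 2.2.3 alone 3003 were higher and 1704 lower, with median centring 686 and 49, against 1228 and 147. The cause of these shifts was not tested. Itgax lost its call with version 2.2.4 alone (adjusted p = 0.0819), lung in Cy3 alone (0.0984) and the replicate block (0.0697). Quantile normalisation of average intensities leaves log ratios as they are. Lung signal of the components was at least 7.82 times the local background on every array whose spot gave signal.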
